A study of Mus musculus with 7 samples.

Results

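The genes described here encode matrix metalloproteinases (MMPs), their tissue inhibitors (TIMPs) and matrix proteins, and they number 10 of the 28666 genes in the deposited table: Fn1, Tgfbi, Mmp8, Mmp9, Mmp12, Mmp13, Mmp14, Mmp19, Timp1 and Timp2. They were found by gene symbol. The symbols were chosen by their measured difference between mature and immature cells in these same libraries, so their values are given as a description, with no test. Bone marrow of female C57BL/6 mice aged 6 to 8 weeks was cultured for 7 days with GM-CSF and IL-4 into bone marrow-derived dendritic cells (BMDCs), which were placed in a Transwell system with MC38, a mouse colon adenocarcinoma line. Immature (3 libraries) and mature (4 libraries) BMDCs were separated by flow sorting, and their poly(A) RNA was sequenced. The study's text places the profiled cells with MC38 cells under DON, a glutamine antagonist, for 24 h, while the legend of the sorting scheme names DMSO or DON at 5 µM, and the labels give no treatment for a library. The markers of the sort were not given either, and the labels do not say whether replicates came from separate mice or cultures, so errors and p-values measure only the spread between these libraries.

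MMPs are zinc-dependent proteases that are made as inactive precursors and cleave collagens, gelatin, elastin and other matrix and cell-surface proteins. TIMPs bind the active site of MMPs and block it. Fibronectin is a fibrillar matrix glycoprotein to which cells attach through integrins. In dendritic cells, immature cells reside in tissues and take up antigen, and maturing cells leave for lymph nodes through basement membranes and interstitial matrix, a passage in which MMPs take part.

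Total counts were 54846746 to 67973086 per library, and no gene of the 10 had fewer than 167 counts in a library. Mature replicate 3 stood apart from the other mature libraries by transcript length, and transcripts of cardiac muscle genes were present in mature replicates 2, 3 and 4. The summed FPKM of 10 cardiac genes was 1.89 to 2.07 in immature libraries, 12.3 in mature replicate 1 and 259 to 275 in the others. In mature replicate 1 Tnni3 alone was at 11.2 FPKM, and none of the other cardiac genes was above 0.38 FPKM. Dendritic cell markers were present in all libraries, with a summed FPKM of 4391 to 4540 in immature and 6649 to 8674 in mature cells. Higher in mature cells by the criteria given below were 5 of 9 (Flt3, Zbtb46, Cd80, Cd86 and Ccr7), against 13.2% of all tested genes. Itgax, H2-Aa, H2-Ab1 and Cd74 did not pass these criteria. Itgax went the other way, with a mean FPKM of 253 in immature and 206 in mature cells. Cd74 was the largest part of the sum, at means of 3455 and 4901 FPKM. The study's flow cytometry of tumors defined mature dendritic cells by CD80 and CD86. If the sort used the same markers, the rise of Cd80 and Cd86 was largely fixed in advance.

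Counts were scaled to CPM, counts on the scale of a common library total, after TMM normalization. Of 17461 genes tested with edgeR's quasi-likelihood test, 4037 (23.1%) were at least 2-fold higher or lower (a log2 fold change of 1 or more in size) with a Benjamini-Hochberg adjusted p under 0.05, the criteria used throughout. Of the 10 genes, 9 were lower in every mature library than in any immature library, where 26.7% of all tested genes were, and 1 was higher, where 25.4% were. The log2 fold change was -1 or below for 7 of them, against 11.9% of tested genes, and 1 or above for 1, against 17.9%. Mmp13 and Mmp14 lay between these limits. The median log2 fold change was -2.10 over the 10 genes and 0.055 over all genes tested. The choice of the genes used this contrast, so nothing is read from these shares.

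Mmp13, Mmp12 and Mmp8 lie in the MMP cluster of chromosome 9, which spans 427072 bases from 7272514 to 7699585. RefSeq promoters on GRCm38.p6 were available here for 7 of the 10 genes, with 2 start sites for Mmp12. Fn1, Mmp9 and Mmp19 had no entry. The 250 bases before the start are shown for the 3 neighbours on chromosome 9, which were lower together in mature cells, and for Timp1, the gene that was higher. Capitals mark a match to the AP-1 motif TGANTCA, and all are on the plus strand. Of the 2 start sites of Mmp12 only start 2 is shown, which lies inside the annotated gene. The bases before start 1 (chr9:7344147-7344396), at the annotated start of the gene, held no AP-1 match.
Mmp13, chr9:7272264-7272513: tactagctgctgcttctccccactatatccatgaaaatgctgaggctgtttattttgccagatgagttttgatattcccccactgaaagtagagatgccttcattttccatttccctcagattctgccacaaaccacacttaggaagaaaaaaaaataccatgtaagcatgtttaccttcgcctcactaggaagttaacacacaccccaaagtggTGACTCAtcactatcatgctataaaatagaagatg
Mmp12 start 2, chr9:7347124-7347373: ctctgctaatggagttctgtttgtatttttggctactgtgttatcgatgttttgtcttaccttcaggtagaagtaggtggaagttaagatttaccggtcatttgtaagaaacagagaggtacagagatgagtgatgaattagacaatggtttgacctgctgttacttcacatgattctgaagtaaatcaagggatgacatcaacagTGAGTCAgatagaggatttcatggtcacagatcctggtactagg
Mmp8, chr9:7558179-7558428: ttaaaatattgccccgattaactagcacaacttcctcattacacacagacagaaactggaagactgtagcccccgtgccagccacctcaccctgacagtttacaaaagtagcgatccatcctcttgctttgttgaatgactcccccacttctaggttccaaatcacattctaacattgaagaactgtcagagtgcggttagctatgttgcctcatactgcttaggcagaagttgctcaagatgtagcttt
Timp1, chrX:20869916-20870165: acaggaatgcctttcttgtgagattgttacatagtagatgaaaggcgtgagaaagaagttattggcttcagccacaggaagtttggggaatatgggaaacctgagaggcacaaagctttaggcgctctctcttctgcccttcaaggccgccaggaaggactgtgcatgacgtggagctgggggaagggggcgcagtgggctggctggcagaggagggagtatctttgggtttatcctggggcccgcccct

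Both motifs that are often described for MMP promoters were searched on both strands, AP-1 as TGANTCA and the ETS-type PEA3 site as AGGAAG. The AP-1 letters were found before Mmp13, beginning 35 bases from the start, and before start 2 of Mmp12, beginning 44 bases from it, and in 6.73% of 32536 distinct promoters of the same length. The PEA3 letters were found in 6 of the 7 genes with an entry (Mmp8, start 1 of Mmp12, Mmp13, Mmp14, Timp1 and Tgfbi) and in 29.6% of all promoters. Mmp13 held both, as 2.00% of promoters did. The 7 genes had 8 entries, and the shares are per promoter. Which start of Mmp12 these cells used was not tested. A match is a description of the letters and not of binding.

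Among the matrix proteins, fibronectin showed the widest difference of the 10 genes. Fn1 (ENSMUSG00000026193, chromosome 1 from 71585520 to 71653175, minus strand, GRCm38) had 2896, 2373 and 2897 CPM in immature replicates 1 to 3 and 256, 210, 141 and 280 CPM in mature replicates 1 to 4. All mature libraries were low, and replicate 3 was the lowest of them. Immature cells averaged 2722 ± 302 CPM (SD, n = 3) and mature cells 222 ± 61.0 CPM (SD, n = 4), 12.3-fold lower, with a log2 fold change of -3.62 ± 0.22 (SE). Without mature replicate 3 the log2 fold change was -3.43 ± 0.12 (SE). In bulk RNA, fewer cells that express a gene and less of its RNA per cell cannot be told apart, here and for each gene below.

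Tgfbi encodes a TGF-beta-induced matrix protein with fasciclin domains that binds collagens and integrins. Tgfbi (ENSMUSG00000035493, chromosome 13 from 56609523 to 56639562, plus strand) had 991, 957 and 970 CPM in immature and 104, 112, 127 and 132 CPM in mature replicates. The libraries of each group lay close together, and the groups were far apart. Its mean was 973 ± 17.5 CPM (SD, n = 3) and 119 ± 12.7 CPM (SD, n = 4), 8.19-fold lower in mature cells, with a log2 fold change of -3.03 ± 0.10 (SE).

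Mmp12, the macrophage elastase, was the most abundant protease transcript of the family. Mmp12 (ENSMUSG00000049723, chromosome 9 from 7344381 to 7369499, plus strand) had 5596, 5463 and 5803 CPM in immature and 811, 1162, 1205 and 1281 CPM in mature replicates. Mature replicate 1 was the lowest, and the highest mature library was far below the immature ones. The mean was 5621 ± 171 CPM (SD, n = 3) against 1115 ± 208 CPM (SD, n = 4), 5.04-fold lower, with a log2 fold change of -2.33 ± 0.15 (SE). In immature cells Mmp12 alone took 0.539% of all counts, Fn1 0.261% and the 10 genes together 0.978%, and in mature cells the 10 genes took 0.175%.

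The collagenases Mmp8 and Mmp13 cleave fibrillar collagens, and they differed from each other in the size of the change. Mmp8, the collagenase first found in neutrophils (ENSMUSG00000005800, chromosome 9 from 7558456 to 7568485, plus strand), had 367, 354 and 361 CPM in immature and 34.7, 49.8, 49.0 and 59.2 CPM in mature replicates. The immature libraries were almost level, and mature replicate 1 was the lowest. The mean was 361 ± 6.37 CPM (SD, n = 3) against 48.2 ± 10.1 CPM (SD, n = 4), 7.48-fold lower, with a log2 fold change of -2.90 ± 0.16 (SE). Neutrophil granule genes were at or near the floor in both groups. The summed FPKM of 10 neutrophil genes was 7.28 to 9.47 in immature and 8.74 to 10.3 in mature cells, 2 of 6 tested genes fell (S100a8 and Csf3r), and Mpo, Camp and Ltf had at most 4, 5 and 10 counts in a library. Cxcr2, the largest part of this sum in mature cells, was at 3.03 to 3.57 FPKM in immature and 4.98 to 8.33 FPKM in mature libraries (log2 fold change 0.91, under the fold criterion, edgeR adjusted p = 0.00184).

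Mmp13 (ENSMUSG00000050578, chromosome 9 from 7272514 to 7283331, plus strand) had 32.1, 33.4 and 36.6 CPM in immature and 9.35, 20.2, 23.9 and 25.2 CPM in mature replicates. Mature replicate 1 was well below the other mature libraries, at 0.404 times their mean. The mean was 34.0 ± 2.30 CPM (SD, n = 3) against 19.7 ± 7.21 CPM (SD, n = 4), 1.73-fold lower, with a log2 fold change of -0.79 ± 0.29 (SE), the smallest of the 10 genes. It was -0.56 ± 0.12 (SE) without mature replicate 1.

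The gelatinase Mmp9 cleaves denatured collagen and the type IV collagen of basement membranes. Mmp9 (ENSMUSG00000017737, chromosome 2 from 164940780 to 164955850, plus strand) had 41.3, 41.4 and 41.2 CPM in immature and 10.7, 9.21, 11.8 and 12.0 CPM in mature replicates. Its immature libraries differed by less than those of any other of the 10 genes, with a coefficient of variation of 0.229%. That is narrower than sampling noise at its 2302 to 2658 counts, so it is not read as a low spread. The mean was 41.3 ± 0.0946 CPM (SD, n = 3) against 10.9 ± 1.26 CPM (SD, n = 4), 3.79-fold lower, with a log2 fold change of -1.92 ± 0.11 (SE).

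Mmp14, a membrane-anchored MMP that activates the gelatinase precursor of Mmp2 at the cell surface, was lower by about the size of the fold criterion. Mmp14 (ENSMUSG00000000957, chromosome 14 from 54431612 to 54441265, plus strand) had 112, 102 and 115 CPM in immature and 48.4, 57.3, 51.4 and 64.2 CPM in mature replicates. The groups did not overlap, and both were narrow. The mean was 110 ± 6.44 CPM (SD, n = 3) against 55.3 ± 6.96 CPM (SD, n = 4), 1.98-fold lower, with a log2 fold change of -0.99 ± 0.11 (SE).

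Mmp19, a secreted MMP that cleaves basement membrane proteins, varied most among mature libraries, with a coefficient of variation of 42.8%. Mmp19 (ENSMUSG00000025355, chromosome 10 from 128790910 to 128800824, plus strand) had 224, 206 and 265 CPM in immature and 45.7, 50.7, 108 and 101.5 CPM in mature replicates. Mature replicates 1 and 2 were low and replicates 3 and 4 stood above them, yet all were below the immature libraries. The mean was 232 ± 30.4 CPM (SD, n = 3) against 76.5 ± 32.7 CPM (SD, n = 4), 3.03-fold lower, with a log2 fold change of -1.60 ± 0.30 (SE). Mmp19 shares 789 exon bases, 22.3% of its exons, with Tmem198b on the opposite strand, which had 1690 to 5572 counts and a mean count that was higher in mature cells (4798 against 1789). Whether the counting used strand was not given in the sources used here, so part of the mature Mmp19 count cannot be told apart from that of Tmem198b.

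The inhibitors went in opposite directions. Timp2 (ENSMUSG00000017466, chromosome 11 from 118301069 to 118355740, minus strand), which also takes part in Mmp2 activation by Mmp14, had 104, 93.7 and 104 CPM in immature and 23.3, 21.1, 21.7 and 17.4 CPM in mature replicates. Mature replicate 4 was the lowest, and the groups were far apart. The mean was 100.6 ± 5.93 CPM (SD, n = 3) against 20.9 ± 2.52 CPM (SD, n = 4), 4.82-fold lower, with a log2 fold change of -2.27 ± 0.11 (SE).

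Timp1 (ENSMUSG00000001131, chromosome X from 20870166 to 20874735, plus strand), an inducible inhibitor of most secreted MMPs, had 2.84, 4.53 and 4.83 CPM in immature and 12.4, 12.1, 23.9 and 12.4 CPM in mature replicates. Mature replicate 3 was about double the other mature libraries, which were level, and all were above the immature ones. The mean was 4.07 ± 1.07 CPM (SD, n = 3) against 15.2 ± 5.80 CPM (SD, n = 4), 3.73-fold higher in mature cells, with a log2 fold change of 1.898 ± 0.31 (SE). Without mature replicate 3 the mature mean was 12.3 ± 0.180 CPM (SD, n = 3) and the log2 fold change 1.62 ± 0.19 (SE). Timp1 lies within Syn1 on the opposite strand, with which it shares 0 exon bases.

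**Figure D1:**
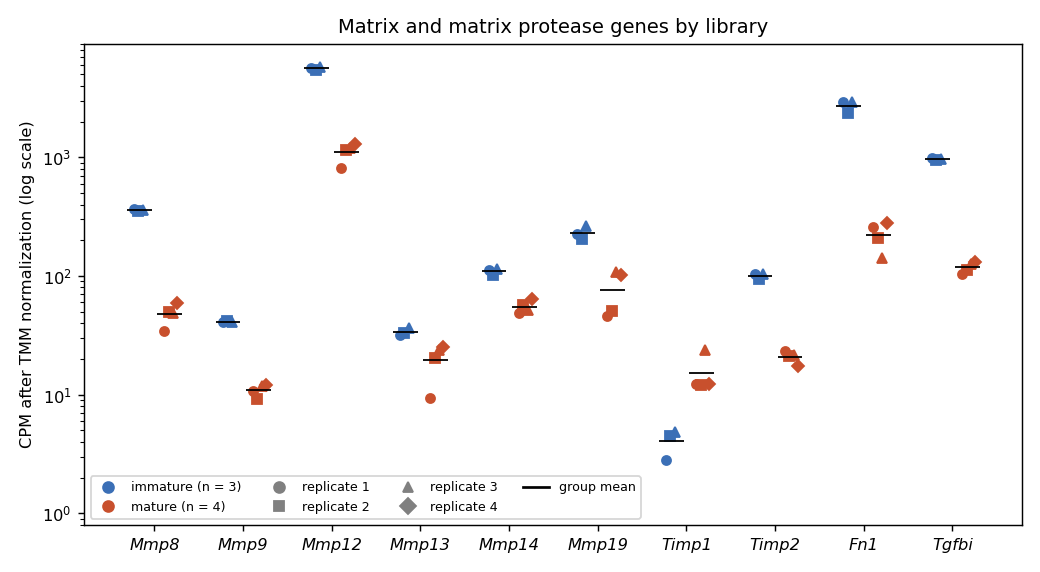
CPM after TMM normalization on a log axis for the 10 genes, with 1 symbol per library (blue, immature, n = 3, and red, mature, n = 4) and a line at each group mean. In 9 genes all mature libraries lie below all immature ones, and in Timp1 they lie above, with replicate 3 highest at 23.9 CPM.

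The plot of CPM by library shows the order of the mature libraries for each of the 10 genes. These genes were measured in the same libraries, and the order was not set beside that of all tested genes, so nothing is read from it. Mature replicate 1 was the lowest mature library for 6 of the 10 genes (Tgfbi, Mmp8, Mmp12, Mmp13, Mmp14 and Mmp19), and replicate 4 the highest for 7. Replicate 1 was also the mature library with the lowest summed FPKM of cardiac genes, and the part of this in the values was not tested.

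Mature replicate 3 was lowest for Fn1, whose coding transcript is the longest of the 10 at 8315 bases, and highest for Timp1, whose coding transcript is the shortest at 883 bases. Across tested genes, the median log2 ratio of this library to the average of mature replicates 1, 2 and 4 was 0.69 for transcripts under 1000 bases and -0.58 for those of 8000 bases and over. The log2 ratio was 0.96 for Timp1 and -0.82 for Fn1. Mmp19, at 3402 bases, had a log2 ratio of 0.71, where the median of its length class was -0.085. The part of transcript length in these values was not tested beyond leaving the library out.

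**Figure D2:**
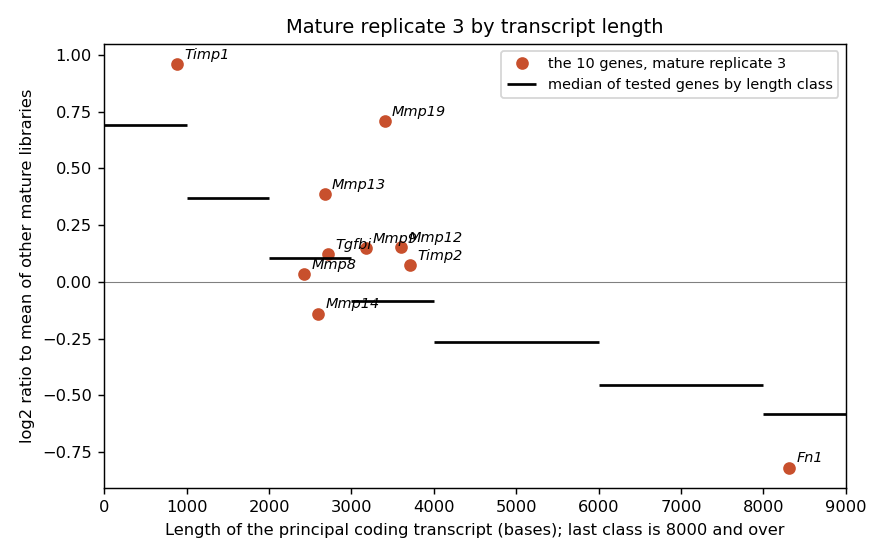
CPM in mature replicate 3 over the average of mature replicates 1, 2 and 4, as a log2 ratio (y axis), against the length of the principal coding transcript in bases (x axis) for the 10 genes (points), with the median of all tested genes in each length class (black lines). Timp1 (0.96) and Fn1 (-0.82) lie at the ends of a falling order of medians, and Mmp19 (0.71) lies above its class.

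Levels of different genes were compared by FPKM, which scales by gene length. In immature cells Mmp12 led at 682 ± 5.68 FPKM (SD, n = 3), followed by Tgfbi at 227 ± 6.51 and Fn1 at 205 ± 20.0, and then Mmp8 at 131 ± 3.30 and Mmp19 at 57.5 ± 6.14. Timp2 (22.7 ± 1.04), Mmp14 (16.2 ± 0.678), Mmp13 (11.2 ± 0.530), Mmp9 (10.2 ± 0.267) and Timp1 (4.00 ± 1.015) followed on the FPKM scale. Tgfbi was above Fn1 in each immature library, by little in replicates 1 and 3 (Fn1 at 0.943 and 0.964 of Tgfbi). In mature cells Mmp12 still led, at 146 ± 26.5 FPKM (SD, n = 4), before Tgfbi at 29.8 ± 2.78. Mmp19 (20.2 ± 8.04 FPKM), Mmp8 (18.8 ± 4.00), Fn1 (18.1 ± 5.39) and Timp1 (16.0 ± 5.19) then lay within each other's spread in mature cells. Mmp14 (8.79 ± 1.28 FPKM) and Mmp13 (6.93 ± 2.47) overlapped as well, and so did Mmp13 and Timp2 (5.07 ± 0.650), of which Timp2 was higher in mature replicate 1. Mmp9 (2.90 ± 0.270) was last. In the order of mean FPKM, Timp1 was at place 10 in immature and 6 in mature cells and Timp2 at places 6 and 9, and these mature places were not resolved, since the values of Timp1 overlapped those of Mmp19, Mmp8 and Fn1 and those of Timp2 overlapped Mmp13. The length behind the deposited FPKM was close to that of all exons of a gene joined. Per kilobase of the principal coding transcript, Mmp14 (42.2 ± 2.48) lay above Timp2 (27.1 ± 1.60) in immature cells, and Timp1 was at places 10 and 7 and Timp2 at places 7 and 9.

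The 6 MMP genes summed to 908 ± 10.9 FPKM (SD, n = 3) in immature and 203 ± 39.3 FPKM (SD, n = 4) in mature cells, 4.47-fold lower. Their sums were 913, 896 and 916 FPKM in immature and 149, 212, 210 and 242 FPKM in mature replicates, so the groups did not overlap. Timp1 and Timp2 together summed to 26.7 ± 0.768 and 21.04 ± 5.14 FPKM, and there mature replicate 3, at 28.7 FPKM, lay above every immature library. The ratio of the MMP sum to the Timp1 and Timp2 sum was 34.1 ± 0.703 in immature and 10.1 ± 3.08 in mature cells. Without Mmp12 it was 8.47 ± 0.143 and 2.84 ± 0.952. The ratio of Timp1 to Timp2 FPKM was 0.120, 0.210 and 0.203 in immature and 2.32, 2.51, 4.83 and 3.13 in mature replicates, so Timp2 was the main transcript of the pair in every immature library and Timp1 in every mature library. These are ratios of transcripts, and no protein or protease activity was measured.

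The other genes of the family changed the make-up of this sum. The table held 22 Mmp genes, of which 16 were tested, and of the 10 that are not described above 3 rose and 3 fell (13.2% of all tested genes rose and 9.95% fell by the same criteria). Mmp25, a GPI-anchored MMP, had 17.0, 14.8 and 18.4 CPM in immature and 263, 254, 187 and 236 CPM in mature replicates, a log2 fold change of 3.81 ± 0.15 (SE, edgeR adjusted p = 4.9e-07). Mmp23, an MMP held in the membrane by its N-terminal part, had a mean of 6.59 ± 1.09 CPM (SD, n = 3) in immature and one of 38.4 ± 5.93 CPM (SD, n = 4) in mature cells, and rose with a log2 fold change of 2.55 ± 0.17 (SE, edgeR adjusted p = 4.8e-06). Mmp2, the gelatinase that Mmp14 activates, fell from 17.2 ± 2.08 to 8.34 ± 3.44 CPM, a log2 fold change of -1.05 ± 0.32 (SE, edgeR adjusted p = 0.0255), and this call was lost in 8 of the alternatives, among them the omission of any immature library, of mature replicate 1 or of mature replicate 4, with a largest adjusted p of 0.0891. The remaining calls (Mmp15 higher, Mmp1b and Mmp27 lower) were at 82, 25 and 98 counts or fewer in a library and were named after their values were seen. In 8 of the alternatives the call of Mmp27 was lost or the gene was not tested. It was lost on the omission of any immature library or of mature replicate 1, with a largest adjusted p of 0.104.

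The 6 described MMP genes made up 98.8% ± 0.0766 of all Mmp FPKM in immature (SD, n = 3) and 76.5% ± 4.81 in mature cells (SD, n = 4). Mmp25 went from 0.300% ± 0.0234 to 16.3% ± 4.59 of it, and the 7 membrane-anchored MMPs together from 2.33% ± 0.0310 to 25.7% ± 5.22. The summed FPKM of the membrane-anchored genes was 21.4 ± 0.537 in immature and 66.5 ± 6.68 in mature cells, while that of the secreted genes was 898 ± 10.5 and 198 ± 39.0.

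**Figure D3:**
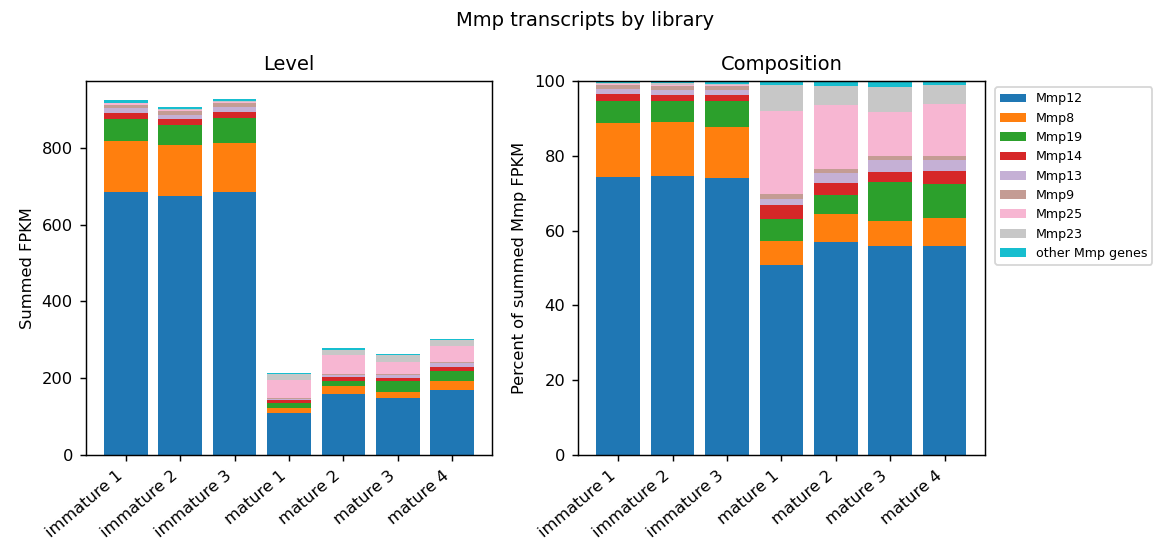
Summed FPKM of the 22 Mmp genes in each library (left) and the percent of that sum from each gene (right). The sum is 907 to 928 FPKM in immature and 213 to 303 FPKM in mature libraries, Mmp12 is the largest share in all 7, and Mmp25 takes 11.8% to 22.4% in mature libraries.

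Among the other metalloproteinase inhibitors, 3 of 4 tested genes passed the criteria, and all 3 were higher in mature cells. Timp3, which binds to the matrix and also blocks ADAM proteases, had 2.22, 2.07 and 1.95 CPM in immature and 28.1, 44.9, 24.2 and 27.8 CPM in mature replicates, a log2 fold change of 3.91 ± 0.24 (SE, edgeR adjusted p = 3.6e-06). Timp3 was highest in mature replicate 2. Its share of all Timp FPKM was 0.832% ± 0.0970 in immature (SD, n = 3) and 15.2% ± 5.73 in mature cells (SD, n = 4). Reck (log2 fold change 2.49, edgeR adjusted p = 8.1e-04) and Timp4 were the others and were named after their values were seen. Timp4 had no count in immature cells or in mature replicate 1, so it was found in mature replicates 2 to 4, the libraries with the most cardiac transcripts. In 9 of the alternatives its call was lost or the gene was not tested.

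**Figure D4:**
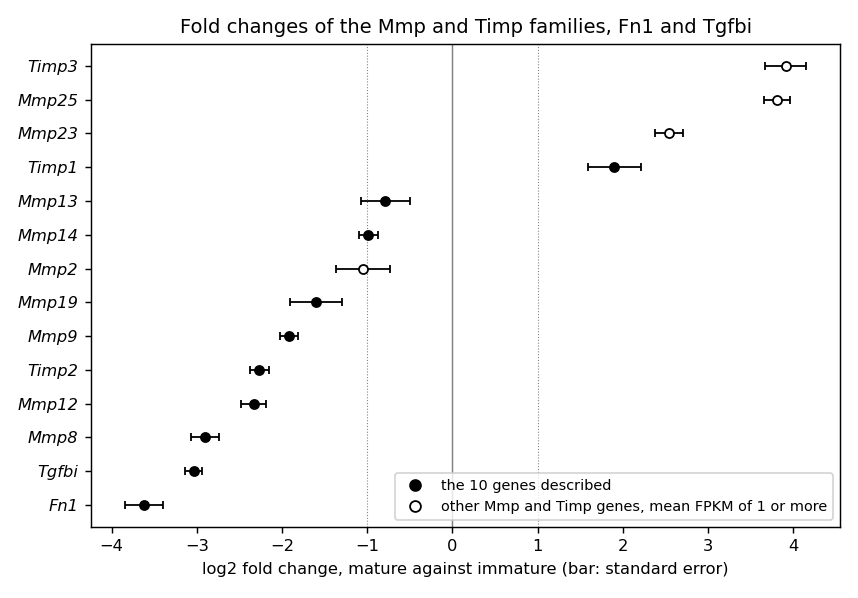
Log2 fold change of mature against immature cells (x axis, bars are standard errors) for the 10 genes (filled, chosen by this difference) and the other tested Mmp and Timp genes with a mean FPKM of 1 or more in either group (open). Fn1 is lowest at -3.62, and Timp3, Mmp25, Mmp23 and Timp1 lie above 1.

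In the MMP cluster of chromosome 9, all 9 genes of the span were MMPs, and 7 were tested. Mmp13, Mmp12 and Mmp8 were the only ones with an FPKM above 1 in a library. Mmp3 and Mmp10, which lie between Mmp12 and Mmp8, had at most 45 and 19 counts in a library and did not pass the test (edgeR adjusted p = 0.476 and 0.965). Mmp20 and Mmp7 had too few counts to be tested.

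Genes of the wider pathway were counted in 11 lists, of which 150 genes were tested. Of these 30 rose (20.0%, against 13.2% of all tested genes) and 28 fell (18.7%, against 9.95%), and the median log2 fold change was 0.11. A count over lists written with earlier results known is a description. For 13 of the 30 genes that rose, mature replicate 1 was below 0.5 times the lowest of mature replicates 2 to 4, the libraries with the most cardiac transcripts (Mmp15, Timp4, Adamts2, Adamts5, Pcsk6, Itgb8, Fbln2, Ccn1, Ccn2, Col1a2, Lama2, Lama4 and Ltbp4), and the part of those transcripts in their calls was not tested.

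The upstream plasminogen system, whose product plasmin activates MMP precursors, had 2 of 10 genes past the criteria, both lower in mature cells. Plaur, the urokinase receptor, had 390, 408 and 407 CPM in immature and 46.5, 59.3, 73.6 and 67.0 CPM in mature replicates, a log2 fold change of -2.71 ± 0.15 (SE, edgeR adjusted p = 1.7e-06). Plau, urokinase itself, fell from 75.2 ± 2.00 to 20.2 ± 4.33 CPM, a log2 fold change of -1.89 ± 0.17 (SE, edgeR adjusted p = 2.8e-05). Among activators and surface partners of MMPs, 1 of 11 rose and 4 fell. Itgam and Itgb2, the chains of the integrin Mac-1, fell with log2 fold changes of -2.85 and -2.06 (edgeR adjusted p = 1.8e-06 and 1.4e-06), and Lrp1, an endocytic receptor that clears MMPs and TIMPs, fell with a log2 fold change of -2.11 (edgeR adjusted p = 8.0e-06). Furin, a convertase that activates membrane MMP precursors, fell with a log2 fold change of -1.33 (edgeR adjusted p = 4.4e-06) and was named after its value was seen, as was Pcsk6, which had no count in immature cells.

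Among receptors of fibronectin and TGFBI, 2 of 15 rose and 2 fell. Itgb7 fell from 417 ± 10.7 to 82.1 ± 9.90 CPM (log2 fold change -2.34 ± 0.10, SE, edgeR adjusted p = 7.0e-07) and Itgb5 from 214 ± 1.02 to 66.5 ± 5.54 CPM (log2 fold change -1.68 ± 0.084, SE, edgeR adjusted p = 1.1e-06). The proteoglycan Sdc4 rose with a log2 fold change of 1.03 (edgeR adjusted p = 3.0e-04), and its log2 fold change was under 1 without immature replicate 1 or without mature replicate 3, down to 0.92. Itgb8, at 58 counts or fewer, was the other and was named after its value was seen.

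Of 22 tested fibronectin partners and matrix glycoproteins, 4 rose and 5 fell. Thbs1, a matricellular protein, had 4504, 3965 and 4082 CPM in immature and 500, 567, 528 and 755 CPM in mature replicates, a log2 fold change of -2.83 ± 0.15 (SE, edgeR adjusted p = 1.5e-06). Emilin2, an elastin-associated glycoprotein, fell with a log2 fold change of -2.74 (edgeR adjusted p = 5.0e-07) and Ecm1 with one of -2.03 (edgeR adjusted p = 3.1e-06). Of 22 collagens and laminins, 3 rose and 1 fell, Col5a1, which had a mean FPKM of 1.00 in immature cells and a log2 fold change of -1.09 (edgeR adjusted p = 9.8e-04). The other calls in both lists were named after their values were seen. They were Spp1 and Lgals3, which fell, and Fbln2, Nid2, Ccn1, Ccn2, Col1a2, Lama2 and Lama4, which rose with a mean FPKM under 1 in both groups. Calls of Lama4, Fbln2 and Ccn1 were lost, or the gene was not tested, in 11, 9 and 8 of the alternatives. The summed FPKM of 7 fibroblast and stroma markers was at most 2.44 in immature and 3.10 to 4.67 in mature cells, and 3 of them rose (Col1a2, Dcn and Lum). Dcn was at 0.09 FPKM in mature replicate 1 and 1.31 to 1.36 FPKM in mature replicates 2 to 4, and Lum was listed at 0 in mature replicate 1 and at 0.44 to 0.57 FPKM in the others, so both moved with the cardiac transcripts.

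In the ADAM family, some of whose members are membrane sheddases related to MMPs, 2 of 11 genes were higher and 5 lower. Adam15 fell with a log2 fold change of -1.74, Adam10 with one of -1.65 and Adam9 with one of -1.51 (edgeR adjusted p = 5.9e-07, 6.1e-05 and 1.1e-05), while Adam23 and Adam19 rose with 3.37 and 2.71 (edgeR adjusted p = 3.0e-06 and 4.3e-06). Adam33 and Adamdec1, the other calls, were lower at 83 counts or fewer and were named after their values were seen. In 13 of the alternatives the call of Adam33 was lost or the gene was not tested, and it was lost with the replicate block. Among ADAMTS proteases, 5 of 10 passed the criteria and were higher in mature cells, of which Adamts7 rose from 1.81 ± 0.884 to 19.7 ± 2.84 CPM (log2 fold change 3.44 ± 0.31, SE, edgeR adjusted p = 3.3e-05). The other 4 (Adamts2, Adamts5, Adamts9 and Adamts13), named after their values were seen, had at most 224 counts in a library.

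In the TGF-beta axis, through which Tgfbi, Fn1 and Timp1 are known to be induced in many cells, 6 of 24 genes rose and 4 fell. The inhibitory Smad7 rose from 3.77 ± 0.315 to 11.7 ± 1.18 CPM (log2 fold change 1.63 ± 0.14, SE, edgeR adjusted p = 2.7e-05), and the corepressor Tgif2 and the ubiquitin ligase Smurf1 rose with log2 fold changes of 2.07 and 1.23 (edgeR adjusted p = 1.6e-05 and 2.8e-05). The receptor Tgfbr2 fell from 110 ± 8.59 to 33.7 ± 4.22 CPM (log2 fold change -1.71 ± 0.11, SE, edgeR adjusted p = 5.6e-06), and Ski and Smad3 fell with log2 fold changes of -1.46 and -1.44 (edgeR adjusted p = 1.6e-05 and 0.00108). The other calls, Tgfb2, Ltbp2 and Ltbp4 (higher) and Smad6 (lower), had a mean FPKM under 1 in both groups and were named after their values were seen. Among AP-1 subunits, which bind the motif marked above, 1 of 11 rose and 2 fell. Fos had 404, 233 and 188 CPM in immature and 25.8, 28.6, 55.9 and 25.2 CPM in mature replicates, a log2 fold change of -3.02 ± 0.35 (SE, edgeR adjusted p = 1.6e-04). Fosb fell with a log2 fold change of -2.38 (edgeR adjusted p = 0.00636), and Batf3 rose with one of 1.36 (edgeR adjusted p = 0.00152).

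Macrophage markers moved with the 9 lower genes. All 9 (Adgre1, Csf1r, Fcgr1, Mertk, C1qa, C1qb, C1qc, Mrc1 and Cd68) fell, with log2 fold changes from -3.43 for Mrc1 to -1.07 for Adgre1, and their summed FPKM was 916 to 950 in immature and 167 to 190 in mature libraries. None of these markers was absent from mature cells. Their part in the values of the MMP, TIMP and matrix genes was not tested. The summed FPKM of 6 markers of epithelial and carcinoma cells was 17.3 to 21.3 in immature and 13.8 to 21.7 in mature libraries. That of 6 mast cell and basophil markers was at most 5.68 and that of 7 lymphocyte markers at most 1.77 in any library.

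For each of the 10 genes, the gene with the most similar profile was found among 11312 tested genes with a mean FPKM of at least 1, by the root mean square difference of centred log2 CPM over the 7 libraries, which measures likeness only. The closest were Ccr2 for Fn1 (0.178), Cd200r4 for Tgfbi (0.0546), Pilra for Mmp8 (0.120), Lrrc25 for Mmp9 (0.0721), Pparg for Mmp12 (0.0849), Slc6a12 for Mmp13 (0.110), Slc35f5 for Mmp14 (0.0599), Tnfrsf26 for Mmp19 (0.191), Sdcbp2 for Timp1 (0.135) and Slc16a10 for Timp2 (0.1001). Mmp19 and Fn1 had the least close neighbours. Ccr2, the receptor of monocyte chemokines, averaged 736 ± 51.8 CPM (SD, n = 3) in immature cells and 69.6 ± 15.5 CPM (SD, n = 4) in mature cells. Pparg, a lipid-sensing nuclear receptor, had 17.0 ± 0.367 and 3.08 ± 0.417 CPM.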

How the data were processed

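RNA-seq of sorted immature (3 libraries) and mature (4 libraries) BMDCs was analysed, with groups and replicate numbers taken from the sample labels. The table deposited by the authors holds raw whole-number counts and FPKM values, which scale counts by gene length and library total. The submitters' processing notes name cutadapt 1.9, HISAT2 2.2.1, StringTie 2.1.6, DESeq2, edgeR and the build mm9, yet 99.5% of 28588 gene IDs start where GENCODE M21 places them on GRCm38, so coordinates are given as GRCm38. The counting program and its strand setting were not given in the sources used here. Deposited columns of no sample numbered 0.

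Counts were tested in R 4.3.3 with edgeR 4.0.16 (filterByExpr, TMM, quasi-likelihood test, group only, all 7 libraries). Standard errors are the log2 fold change over the square root of F. CPM is after TMM, and SD is over libraries. On simulated counts with 200 genes changed 4-fold, edgeR recovered 200 with 1 false call among 17405 genes, DESeq2 200 with 0 and limma 156 with 0. The changed genes were drawn from well-counted genes, and all genes had the same dispersion (spread between replicates). Neither the length difference of mature replicate 3 nor cardiac transcripts were simulated. These figures do not carry over to genes with few counts or to smaller changes. Alternatives were DESeq2 1.42.0, limma 3.58.1 on log2(FPKM + 1) or log2(FPKM + 0.1), other scalings, no filter on low counts, adjusted p alone, a replicate block and the omission of each library. The replicate numbers showed no sign of pairing (correlations of same-numbered deviations 0.0285, -0.00114 and 0.0144). So few correlations cannot exclude shared mice or cultures. No 2 libraries agreed within sampling noise (median chi-square per gene 3.83 to 25.6). Reads were not collapsed by molecule, and the SDs and standard errors given here cover the spread between these libraries.

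The 10 genes and all lists were chosen with earlier results of these data known. In each list, up to 3 genes per direction were named that passed the criteria, did not overlap between groups and had a mean FPKM of at least 1 in the higher group, by size of fold change. The levels per coding transcript length and the ratios without each library were chosen after seeing the data. Promoter sequences are RefSeq's on GRCm38.p6.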

Additional observations from a re-analysis of the deposited data

Results flagged for a closer look

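Among the 4 mature libraries, 6 of 48 values compared had 1 library far from the rest, where chance would give about 2.4 if the values were independent. They are not, since all come from the same 4 libraries and Timp1 also enters the sum of Timp1 and Timp2. The 2.4 is thus only a rough guide. The measure is the gap of the extreme library to its nearest neighbour over the whole range of the group, read against Dixon's 95% critical value for 4 samples. It was 0.973 for Timp1 CPM and 0.851 for the FPKM sum of Timp1 and Timp2, 0.975 for Adam19, 0.848 for Sdc4, 0.889 for Fos and 0.976 for Batf3. Mature replicate 3 was the library apart in all 6, higher in each but Adam19, where it was lower. It is the library that differed by transcript length, and the part of length in these values was not tested. Immature groups of 3 were not examined in this way.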

How the results depend on the processing

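The 10 genes were chosen by this contrast and did not overlap between groups, so a kept direction was nearly fixed in advance. All 10 kept their direction in 150 recomputed fold changes, of which 142 moved by less than the spread between libraries. The 8 others came from limma on log2(FPKM + 1), with and without a filter on low values, and the cause was not tested. The log2 fold changes were then -1.53 for Mmp9, -0.82 for Mmp14, -1.97 for Timp2 and -2.89 for Tgfbi. The 4037 calls over all genes became 2561 with limma on log2(FPKM + 0.1), 1768 with limma on log2(FPKM + 1), 1716 without its filter and 8053 by adjusted p alone. The 58 listed pathway genes became 32, 30 and 30 under these 3 limma fits. Omission of single libraries gave 3646 to 4052 calls over all genes and 47 to 61 listed genes. Over the same omissions the log2 fold change ran from -1.96 to -1.84 for Mmp9, from -1.06 to -0.93 for Mmp14, from -2.33 to -2.18 for Timp2 and from -3.08 to -2.98 for Tgfbi. With the replicate number as a block, 3616 genes and 51 listed genes passed. Scaling by library totals shifted the median log2 fold change of all genes from 0.055 to 0.16 and turned no direction of the 10 genes. Of the 58 listed calls, 29 were kept under every alternative. A call counted as not kept also where an alternative did not test the gene, as the filtered limma fits did not for Reck. Depth did not limit the 10 genes, each with 167 counts or more in every library, but limits low genes such as Timp4 and Mmp27.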

Other observations

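Coefficients of variation of CPM in mature cells were 42.8% for Mmp19, 38.2% for Timp1, 36.6% for Mmp13 and 27.5% for Fn1, and in immature cells 13.1%, 26.3%, 6.75% and 11.1%. The coefficient was higher in mature cells for each of the 10 genes. Without mature replicate 3 it was 14.2% for Fn1 and 1.47% for Timp1, which put Timp1 below its immature value, while the other 9 stayed above theirs. The ratio of Fn1 to Tgfbi FPKM was 0.902 ± 0.0891 in immature (SD, n = 3) and 0.610 ± 0.184 in mature cells (SD, n = 4). It was lowest in mature replicate 3, at 0.360, against 0.604 or more in mature replicates 1, 2 and 4.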
